A study of Mus musculus with 5 samples.

Results

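CHIR99021, an inhibitor of the kinase GSK3, was compared with a medium change alone in mouse epiblast stem cells. The comparison rests on the array labelled CH and the array labelled untreated, out of 5 arrays. Probes were taken when their detection p-value was under 0.01 on either array, which kept 11306 of 25697 probes. A gene was kept when its brightest probe over the 5 arrays was among them, which gave 7882 of 16593 named genes. Of the genes kept, 7163 were detected on both arrays, 510 on the CH array only and 209 on the untreated array only.

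Epiblast stem cells are pluripotent cells in a primed state, like the epiblast after implantation. The line E3 was used throughout, and its label on the untreated sample gives a hybrid background. The cells stood on a thin layer of inactivated CF1 embryonic fibroblasts in KSR medium with FGF2 at 5 ng/ml, and for the last 3 h before harvest the medium was exchanged. The untreated culture was changed to KSR medium with nothing added, and the CH culture to KSR medium containing 3 uM CHIR99021. The other cultures had 1 uM of the MEK inhibitor PD0325901 (labelled PD), 1000 U/ml of the cytokine LIF, or PD0325901, CHIR99021 and LIF together at the same doses (labelled PCL). The labels name no FGF2 in any of the final media. Each condition is a single array from 1 line, so the comparison has no replicate check and no p-value is given for it.

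GSK3 phosphorylates beta-catenin inside a destruction complex assembled on the scaffolds Axin and APC, and so marks it for degradation. When the kinase is blocked, beta-catenin accumulates and acts with TCF/LEF factors on Wnt target genes, several of which encode inhibitors of the same pathway. In the mouse embryo Wnt signalling in the posterior epiblast is needed for the primitive streak, the source of mesoderm and endoderm.

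Levels are background-corrected, normalized intensities on a log2 scale, and differences are CH minus untreated on that scale. The error after ± is the scatter among the beads of each probe, as a standard error of the log2 difference. It leaves out the spread between cultures, extractions and hybridisations. The 5 arrays had 10130 to 10981 detected probes, with 10480 on the untreated and 10980 on the CH array. Median raw intensity ran from 83.3 to 91.1 over the arrays, with 91.1 untreated and 84.2 with CH. The 75th percentile was 177.8 untreated and 140.5 with CH. On both measures the untreated array was the highest of the 5. All 8 epiblast stem cell markers were detected on every array, and their summed level was 14.46 untreated and 14.52 with CH. Feeder markers were also present, 5 of 8 on each array, at a summed level of 12.15 and 12.22. Col1a2, Col3a1 and Postn were not detected on the untreated or the CH array. None of 4 trophoblast markers was detected there, while Gata6 was the only extraembryonic endoderm marker of 5 and Map2 the only neural marker of 4. In RNA from such a mixture, fewer cells of a type and less RNA per cell cannot be told apart.

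Sp5 had the largest difference of all genes kept. Axin2 is the textbook feedback target of beta-catenin. Tnfrsf19, a receptor gene of the tumour necrosis factor family, is regulated by Wnt signalling. The RefSeq promoter windows of these genes, which reach from 250 bases before to 50 bases after a start site, are shown so that the TCF/LEF core letters can be seen in them. Each is read 5′ to 3′ along the gene's own strand of GRCm38.p6, and capitals mark CTTTGA or, on the other strand, TCAAAG. No other motif was searched. The windows lie at chr2:70474673-70474972 (plus strand) for Sp5, at chr11:108920099-108920398 (plus strand) for Axin2 and at chr14:61037938-61038237 (minus strand) for the second of the annotated Tnfrsf19 starts.
Sp5: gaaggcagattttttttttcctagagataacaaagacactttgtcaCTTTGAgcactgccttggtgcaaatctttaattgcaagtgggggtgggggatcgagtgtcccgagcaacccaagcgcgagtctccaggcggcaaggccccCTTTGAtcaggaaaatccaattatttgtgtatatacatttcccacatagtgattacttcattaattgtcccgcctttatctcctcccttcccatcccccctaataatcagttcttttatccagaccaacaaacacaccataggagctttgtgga
Axin2: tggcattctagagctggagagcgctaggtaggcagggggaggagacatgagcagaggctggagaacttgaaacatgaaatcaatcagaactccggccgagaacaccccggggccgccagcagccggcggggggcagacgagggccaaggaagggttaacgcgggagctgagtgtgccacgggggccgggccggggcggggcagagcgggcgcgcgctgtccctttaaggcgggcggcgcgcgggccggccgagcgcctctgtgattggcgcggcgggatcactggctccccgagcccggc
Tnfrsf19: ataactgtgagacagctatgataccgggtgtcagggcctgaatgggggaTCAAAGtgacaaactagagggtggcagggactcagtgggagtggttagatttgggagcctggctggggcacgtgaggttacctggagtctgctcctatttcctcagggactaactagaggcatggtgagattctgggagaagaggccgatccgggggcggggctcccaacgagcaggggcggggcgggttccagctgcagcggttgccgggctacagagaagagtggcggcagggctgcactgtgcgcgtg

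The Sp5 window held 2 matches, 204 and 104 bases before the start. The Axin2 window held none, nor did those of Gbx2, Bst2, Eomes and Gsc. Of the 6 genes at least 2-fold higher with a window, 1 thus had a match. A window without one says only that these letters are not in it. For Axin2 the annotated gene begins at chr11:108917828, before its window, and that stretch was not searched. The Tnfrsf19 window held 1 match, on the other strand 201 bases before the start, and the window of its other start held none. Over all 32851 mouse promoter windows in the table, 16% held the letters on either strand. Counted by gene, as in the shares that follow, 4911 of all 27025 genes with a window (18.2%) had a match. Among genes kept in the comparison, 903 of 6449 with a window (14.0%) had a match. The share was 14.1% both for the genes at least 1.5-fold higher with CH (13 of 92) and for those at least 1.5-fold lower (11 of 78). The shares of higher, lower and all genes kept thus lay close to each other.

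Most transcripts differed little between the arrays. The median difference over all genes kept was -0.0025, the 5th to 95th percentiles ran from -0.40 to 0.41, and 7661 genes (97.2%) lay within 1.5-fold. At least 2-fold differences were found for 15 of 7882 genes, 0.19% of them. Of these, 9 were higher with CH, 0.114% of the genes kept, and 6 were lower, 0.0761%. At 1.5-fold the counts were 117 higher (1.48%) and 104 lower (1.32%). That balance and the median depend on the quantile normalization, which gives all 5 arrays the same distribution. Scaling to a common 75th percentile instead gave 60 higher and 4 lower at 2-fold, and 502 higher and 38 lower at 1.5-fold. The median was then 0.08. The threshold itself is arbitrary. Gsc (1.02) lay just inside it, and Fam118a (0.98), Tnfrsf19 (0.98) and Car11 (-0.98) lay just outside.

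**Figure D1:**
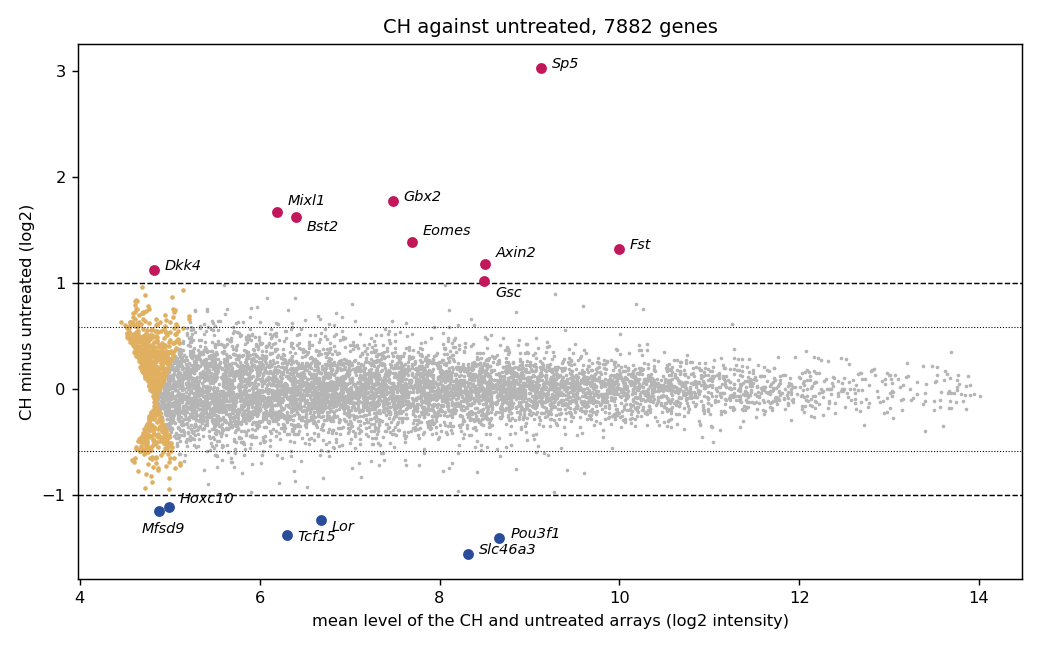
CH minus untreated (log2, vertical axis) against the mean level of the CH and untreated arrays (log2 intensity, horizontal axis) for 7882 genes. Red and blue points are the genes at least 2-fold higher or lower, orange points are other genes detected on 1 of the 2 arrays, dashed lines mark 2-fold and dotted lines 1.5-fold. Sp5 (3.03) stands apart from all other points.

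The genes at least 2-fold higher with CH were Sp5, Gbx2, Mixl1, Bst2, Eomes, Fst, Axin2, Dkk4 and Gsc. They include targets and feedback inhibitors of Wnt signalling (Sp5, Axin2, Dkk4) and genes of the primitive streak and organizer (Mixl1, Eomes, Gsc). All except Dkk4 were detected on both arrays. For those 8 the PD and LIF arrays also lay at least 1.5-fold below CH, a description that shares the CH array with the choice of genes. Bst2 was the only gene of the set that was above untreated on all 4 treated arrays.

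Sp5 encodes a zinc-finger transcription factor induced by beta-catenin. Its level was 7.62 on the untreated array, 7.38 with PD, 8.47 with LIF, 10.64 with CH and 11.01 with PCL. The arrays with CHIR99021 were thus more than 2 log2 units above the highest of the other three. The difference from untreated was 3.03 ± 0.08, an 8.15-fold higher level, and the raw intensity went from 328 to 1496.

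Axin2, a scaffold of the destruction complex and a negative feedback regulator, was at 7.91 untreated, 7.58 with PD, 7.60 with LIF, 9.09 with CH and 9.43 with PCL. The arrays without CHIR99021 lay close together, and both arrays with it were higher. The difference was 1.18 ± 0.08 (2.26-fold). Dkk4, a secreted antagonist of the Wnt co-receptors, was detected on the CH array alone, at 5.39. Its level lay between 4.15 and 4.50 on the other arrays, below detection. Against the lowest level detected on the untreated array, the Dkk4 level with CH was at least 1.41-fold higher (0.50), so it passes 2-fold only on its measured difference of 1.12 ± 0.13. Tnfrsf19 was at 7.57 untreated, 6.64 with PD, 7.35 with LIF, 8.55 with CH and 7.92 with PCL, a difference of 0.98 ± 0.09. CH was the highest array for Tnfrsf19 and PD the lowest.

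A list of 28 Wnt/beta-catenin targets had a named probe for 26 genes, and 17 of these were kept. T and Tcf7 had no named probe and are not analysed here. At least 1.5-fold higher were Sp5, Axin2 and Tnfrsf19, 3 of 17 beside 1.48% of all genes kept, and none was lower by that much (1.32% of all genes kept). The other members were closer to the untreated level. The ligand genes Wnt3 and Wnt8a differed by 0.56 ± 0.16 and 0.42 ± 0.11, and Lef1, which encodes a partner of beta-catenin, by 0.40 ± 0.18. The cyclin genes Ccnd1 and Ccnd2 differed by 0.10 ± 0.07 and 0.14 ± 0.08. Jun differed by 0.21 ± 0.14 and Nkd2, an inhibitor of Dishevelled, by -0.06 ± 0.16.

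Because 6 of the 17 Wnt targets were detected with CH only (Cdx1, Cdx2, Dkk1, Lgr5, Msx1 and Sp8), their passing the filter leans to higher values. The caudal homeobox gene Cdx2 is an example: its difference was 0.47, but its bound was 0.02 (at least 1.01-fold). Over the 11 targets detected on both arrays the median was 0.40, with 10 above 0. Over all 26 with a probe the median was 0.19, with 20 above 0. For comparison, 47.5% of all genes detected on both arrays were above 0 and their median was -0.01.

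Genes for the pathway's own machinery stood mostly near the untreated level. GSK3 itself, the target of the inhibitor, was dim: Gsk3a differed by -0.27 ± 0.16 and Gsk3b by 0.21 ± 0.15. These RNA levels do not measure kinase activity. Of 40 components, 26 were kept, with a median of 0.00, 2 at least 1.5-fold higher (1.48% of all genes kept) and none lower (1.32%). The 2 were receptor genes of the Frizzled family. Fzd10 was at 6.49 untreated, 7.30 with PD, 6.84 with LIF, 7.20 with CH and 8.04 with PCL, so that PD was as high as CH, and its other detected probes differed by 0.37 and 0.72. Fzd4 was detected with CH only, at least 1.08-fold higher. Ctnnb1, the gene of beta-catenin, differed by 0.13 ± 0.09, and Tcf7l1, a repressor bound at its targets, by -0.09 ± 0.07.

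Several genes of the primitive streak were higher with CH. Mixl1, a homeobox gene of the streak, was at 5.36 untreated, 5.25 with PD, 5.09 with LIF, 7.02 with CH and 6.05 with PCL. Both arrays with CHIR99021 were above the other three, and CH was the higher of them. The difference was 1.67 ± 0.14 (3.17-fold), and a second Mixl1 probe gave 1.01. Eomes, a T-box factor gene of mesendoderm, was at 7.0 untreated, 6.0 with PD, 6.67 with LIF, 8.38 with CH and 7.01 with PCL. Its difference was 1.38 ± 0.16 (2.61-fold), yet the PCL array was level with the untreated one. Gsc, a homeobox gene of the organizer, was at 7.99 untreated, 8.31 with PD, 7.60 with LIF, 9.01 with CH and 8.68 with PCL. CH was the highest array for Gsc, with a difference of 1.02 ± 0.07 (2.02-fold).

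Fgf8, which encodes a signalling factor of the streak, was at 8.84 untreated, 9.87 with PD, 9.06 with LIF, 9.74 with CH and 10.23 with PCL. Its difference was 0.90 ± 0.09, but PD alone was as high as CH. Of 23 streak and mesendoderm genes, 14 were kept and 13 of those were detected on both arrays. Mixl1, Eomes, Gsc and Fgf8 were at least 1.5-fold higher, 4 of 14 beside 1.48% of all genes kept. Lhx1, a LIM homeobox gene, was lower (-0.71 ± 0.18), 1 of 14 beside 1.32%. The median over the 14 was 0.15, against -0.0025 for all genes, since the remaining members spread on both sides of 0. Nodal differed by 0.39, Foxa2 by 0.14, Sox17 by 0.08 and Cer1 by 0.02, while Chrd differed by -0.55 and Gata6 by -0.43.

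Gbx2, a homeobox gene later active at the border of midbrain and hindbrain, was at 6.60 untreated, 5.67 with PD, 7.37 with LIF, 8.37 with CH and 9.82 with PCL. The lowest level was with PD and the highest with PCL. The difference with CH was 1.77 ± 0.13 (3.41-fold). Fst encodes follistatin, a secreted protein that binds activin. It was at 9.34 untreated, 7.67 with PD, 8.47 with LIF, 10.66 with CH and 9.50 with PCL, and differed by 1.32 ± 0.10 (2.50-fold). PCL was close to untreated for Fst, while PD and LIF were below it.

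Bst2, which encodes the membrane protein tetherin, is better known from the interferon response. It was at 5.59 untreated, 6.38 with PD, 6.52 with LIF, 7.22 with CH and 7.12 with PCL, with a difference of 1.62 ± 0.22. The untreated array was the lowest of the 5 for Bst2. Of the 8 interferon response genes kept, Bst2 was the only one at least 1.5-fold different, and the lowest was Psmb9 at -0.32.

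**Figure D2:**
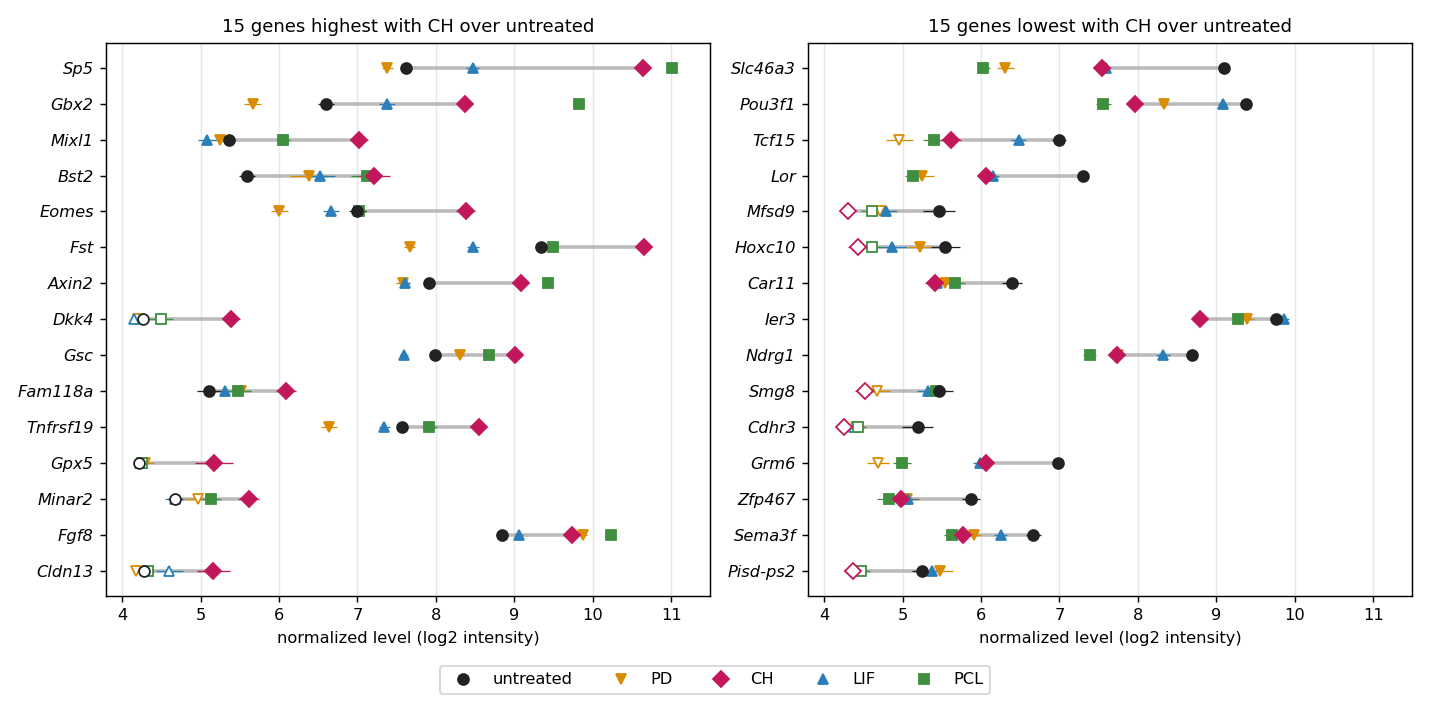
Normalized level (log2 intensity) on each of the 5 arrays for the 15 genes with the highest and the 15 with the lowest CH minus untreated difference. A grey bar joins untreated to CH, thin lines are bead-level standard errors and open symbols mark levels below detection. In the left panel CH lies to the right of PD and LIF for Sp5, Gbx2, Mixl1 and Axin2, and in the right panel the untreated array is the highest for Slc46a3, Pou3f1, Tcf15 and Lor.

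The genes at least 2-fold lower with CH were Slc46a3, Pou3f1, Tcf15, Lor, Mfsd9 and Hoxc10. The untreated array was the highest of the 5 for each of them. Since a high untreated level is part of how these genes were chosen, nothing is read from that.

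Pou3f1 encodes a POU-domain factor of the primed epiblast and of neural cells. It was at 9.37 untreated, 8.33 with PD, 9.08 with LIF, 7.96 with CH and 7.56 with PCL. The arrays with CHIR99021 were the lowest, with PD between them and LIF. The difference was -1.41 ± 0.09, a 2.66-fold lower level. Slc46a3, a lysosomal transporter gene, had the largest negative difference, -1.56 ± 0.09. It was at 9.10 untreated, 6.31 with PD, 7.59 with LIF, 7.54 with CH and 6.03 with PCL, so CH and LIF were alike and PD was lower than both. Lor, which encodes the cornified envelope protein loricrin, was at 7.30, 5.25, 6.15, 6.07 and 5.14 on the untreated, PD, LIF, CH and PCL arrays. For Lor too PD was below CH, and the difference with CH was -1.23 ± 0.11.

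Tcf15, a basic helix-loop-helix factor gene, was at 6.99 untreated, 4.96 with PD, 6.48 with LIF, 5.61 with CH and 5.41 with PCL, a difference of -1.38 ± 0.16. The PD level of Tcf15 was below detection. Mfsd9 and the homeobox gene Hoxc10 were detected on the untreated but not on the CH array. Their measured differences were -1.16 ± 0.22 and -1.11 ± 0.23, and their bounds were at least 1.61-fold and 1.70-fold lower.

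The choice of reference array bore on which genes passed 2-fold. Against the mean of the PD and LIF arrays in place of untreated, 20 genes were at least 2-fold higher with CH, 8 of them among the 9, and Bst2 was the one left out (0.76). Dkk4, counted among the 8, was not detected with PD or LIF. By that reference 1 gene was at least 2-fold lower, the pseudogene Pisd-ps2 (-1.06), which was not detected with CH, and 0 of the 6 were. Slc46a3 and Lor were then above the reference, by 0.59 and 0.36. Pou3f1 remained below it by less than 2-fold (-0.74). These comparisons share the CH array with the main one.

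Pairing PCL with PD and LIF gives a second look at CHIR99021 on arrays that the CH comparison does not use. The groups differ in more than CHIR99021, since PCL holds all agents and PD and LIF hold 1 each. The measured PCL level was above both PD and LIF for the 9 genes at least 2-fold higher with CH, against 37.2% of all genes kept, and below both for 5 of the 6 lower genes, against 33.9%. Some of these levels are below detection: Dkk4 was detected on none of the PD, LIF and PCL arrays, and Tcf15, Mfsd9 and Hoxc10 were each undetected on at least 1. Among genes detected on PD, LIF and PCL, PCL was above both for 8 of 8 higher genes, against 37.4% of all such genes. It was below both for 3 of 3 lower genes (Slc46a3, Pou3f1 and Lor), against 34.5%. For Lor the PCL level (5.14, bead error 0.11) and the PD level (5.25, bead error 0.15) overlapped within error. Slc46a3 was at 6.03 with PCL and 6.31 with PD, and Pou3f1 at 7.56 and 8.33. At 1.5-fold, with the same detection rule, PCL lay above both for 42 of 62 higher genes (67.7%) and below both for 47 of 68 lower genes (69.1%).

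The sizes on the second look varied. PCL minus the mean of PD and LIF was 3.30 for Gbx2, 3.09 for Sp5, 1.84 for Axin2 and 1.43 for Fst. It was smaller for Mixl1 (0.88), Gsc (0.73), Eomes (0.68) and Bst2 (0.66). Gbx2 and Axin2 were therefore further apart on these arrays than on the CH and untreated arrays, and Sp5 and Fst slightly so. Mixl1, Eomes, Gsc and Bst2 were closer. Of the lower genes, Pou3f1 was at -1.14, Slc46a3 at -0.92 and Lor at -0.56, each smaller in size than its difference with CH. Cdx2, which was near its detection limit with CH, was at 5.52 with PCL and was not detected with PD or LIF.

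**Figure D3:**
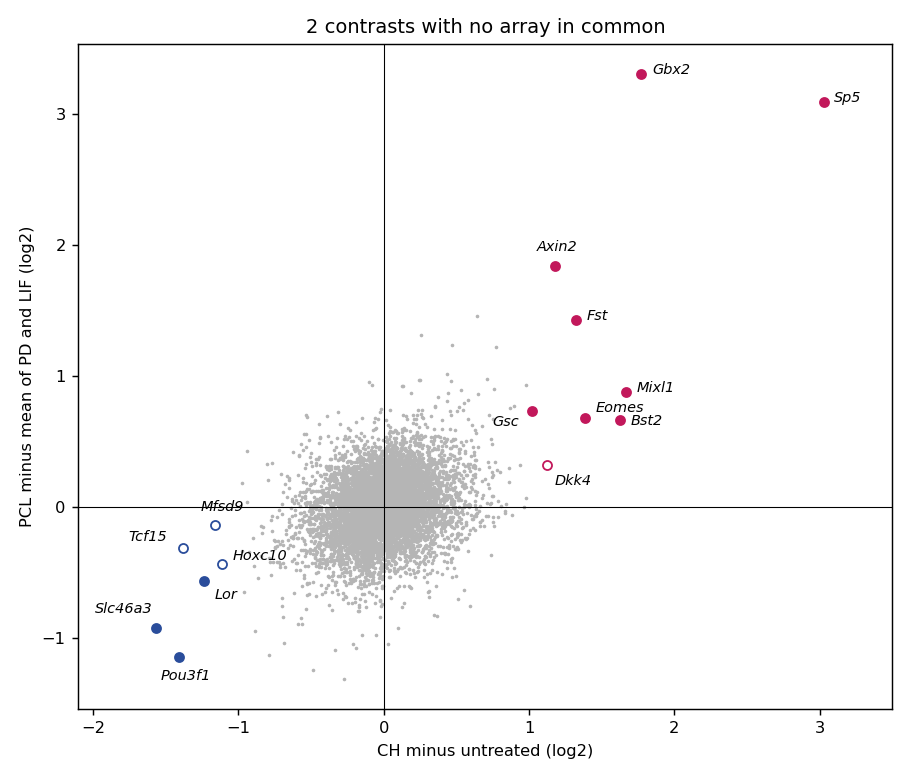
CH minus untreated (log2, horizontal axis) against PCL minus the mean of PD and LIF (log2, vertical axis) for 7882 genes, 2 differences that share no array. Red and blue points are the genes at least 2-fold higher or lower with CH. Open points have a level below detection among PD, LIF and PCL, so their height is not a measured difference. The 8 filled red points lie from 0.66 for Bst2 to 3.30 for Gbx2 on the vertical axis.

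Genes outside the Wnt and streak lists that completed the 15 highest were Fam118a (0.98 ± 0.20), Gpx5, Minar2 and Cldn13. Gpx5, Minar2 and Cldn13 were detected with CH only, with bounds of at least 1.22-fold, 1.65-fold and 1.21-fold. PCL was not above both PD and LIF for Fam118a (5.48, against 5.51 with PD), and Gpx5 and Cldn13 were not detected with PD, LIF or PCL. Completing the 15 lowest were Car11, Ier3, Ndrg1, Smg8, Cdhr3, Grm6, Zfp467, Sema3f and Pisd-ps2. Ndrg1, a gene induced by low oxygen, was at 8.69 untreated, 7.75 with PD, 8.32 with LIF, 7.73 with CH and 7.38 with PCL, a difference of -0.96 ± 0.12. A second Ndrg1 probe gave -0.69. Sema3f, which encodes a secreted guidance protein, differed by -0.89 ± 0.13, with -1.09 from a second probe. Smg8, Cdhr3 and Pisd-ps2 were not detected with CH and had bounds of at least 1.61-fold, 1.34-fold and 1.39-fold lower. Pisd-ps2 is a pseudogene, and whether its probe also binds RNA of related genes was not tested.

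Among pluripotency genes, Nanog was higher and Sox2 lower with CH. Nanog, a homeobox factor gene of the pluripotency core, was at 9.20 untreated, 10.10 with PD, 9.50 with LIF, 9.98 with CH and 10.08 with PCL. The difference was 0.78 ± 0.07, and the untreated array was the lowest of the 5. Sox2 was at 7.95 untreated, 7.10 with PD, 8.05 with LIF, 7.28 with CH and 7.39 with PCL, a difference of -0.67 ± 0.13. A second, dim Sox2 probe gave -0.02. Pou5f1 differed by 0.03 ± 0.13, and by -0.20 on a second probe. The 10 core genes kept had a median of -0.10, against -0.0025 for all genes kept.

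The naive pluripotency genes other than Gbx2 did not move together. Klf2 differed by 0.26, Esrrb by 0.02, Klf4 by -0.27, Zfp42 by -0.55 and Fgf4 by -0.62 ± 0.26, and the median of the 11 kept was -0.00. Fgf4 was the only one at least 1.5-fold lower, and its level with CH (4.79) lay at the detection limit of 4.78. Of 11 primed epiblast genes kept, Fgf8 was at least 1.5-fold higher, and Pou3f1 and the zinc-finger gene Sall2 (-0.68 ± 0.10) lower. Of all genes kept, 1.48% were higher and 1.32% lower by that much. Otx2 differed by -0.38 ± 0.08 and Fgf5 by -0.27 ± 0.07. The primed list had a median of -0.14.

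Genes downstream of FGF and ERK had the lowest median of the 26 lists, -0.26 over 14 kept, all of which were detected on both arrays. It was -0.77 with PD, the MEK inhibitor, and CH stood above the mean of PD and LIF by a median of 0.44. The immediate early genes Ier3 and Egr1 were at least 1.5-fold lower than untreated, 2 of 14 beside 1.32% of all genes kept. No member was higher by that much. Ier3 was at 9.76 untreated, 9.39 with PD, 9.86 with LIF, 8.79 with CH and 9.28 with PCL, a difference of -0.97 ± 0.10. CH was the lowest array for Ier3, below PD as well. Egr1 was at 10.01 untreated, 6.32 with PD, 8.70 with LIF, 9.22 with CH and 6.38 with PCL. Its difference with CH was -0.79 ± 0.08, a small step beside the PD level. Dusp6 and Dusp4, ERK phosphatase genes, differed by -0.33 and -0.53, and Fos by -0.50. The Dusp4 probes disagreed, with -0.68 from another and 0.42 from a dim one, while the other Dusp6 probes gave -0.42 and -0.39.

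Of the Nodal/Activin genes only Fst was at least 1.5-fold different. Lefty2, a Nodal inhibitor gene, differed by -0.55 ± 0.13 and Lefty1 by 0.07, and the median of 11 was 0.02. Among 16 epithelial and mesenchymal transition genes, the repressor genes Zeb2 (0.68 ± 0.17) and Snai1 (0.63 ± 0.20) were at least 1.5-fold higher. That is 2 of 16 beside 1.48% of all genes kept, while the list median was -0.09, with 6 above 0. Both were dim, at 6.23 and 6.32 with CH, and a second Snai1 probe gave 0.46. The tight junction gene Ocln was lower (-0.60), although it was not detected with CH and its bound was 1.19-fold. Cdh1, the gene of E-cadherin, differed by 0.03. Of the caudal genes, the homeobox gene Nkx1-2 was higher (0.74 ± 0.18), from 5.04 to 5.78.

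Single members of other lists also passed 1.5-fold. The retinoic acid receptor gene Rarg was lower (-0.87 ± 0.16), with -0.45 from a second probe. Of 10 hypoxia genes, Ndrg1 and the prolyl hydroxylase gene Egln3 (-0.72 ± 0.11) were lower, beside 1.32% of all genes kept. The hypoxia median was -0.20. Amn, an endocytic receptor component of extraembryonic endoderm, was higher (0.74 ± 0.19), from 4.91 untreated, close to the detection limit, to 5.65 with CH. It was not detected with PD or PCL. Of the 5 genes kept in its list 3 were above 0, with a median of 0.08, and Gata6 was the lowest (-0.43). The translation factor gene Eif4e was lower (-0.65), with a bound of 1.32-fold. In the LIF/STAT3, BMP/Id, Notch, neural, feeder, trophoblast, glycolysis, cholesterol, stress, cell cycle and reference lists no member kept was 1.5-fold different in either direction by its brightest probe. Dimmer detected probes did pass it for the reference gene Actb (0.64) and the glycolytic gene Pfkp (-0.60), as did 1 of the MYC target Rrm2 (0.93), whose brightest probe gave -0.06. The feeder list had a median of -0.04 over 11 genes and the reference list 0.01 over 8.

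**Figure D4:**
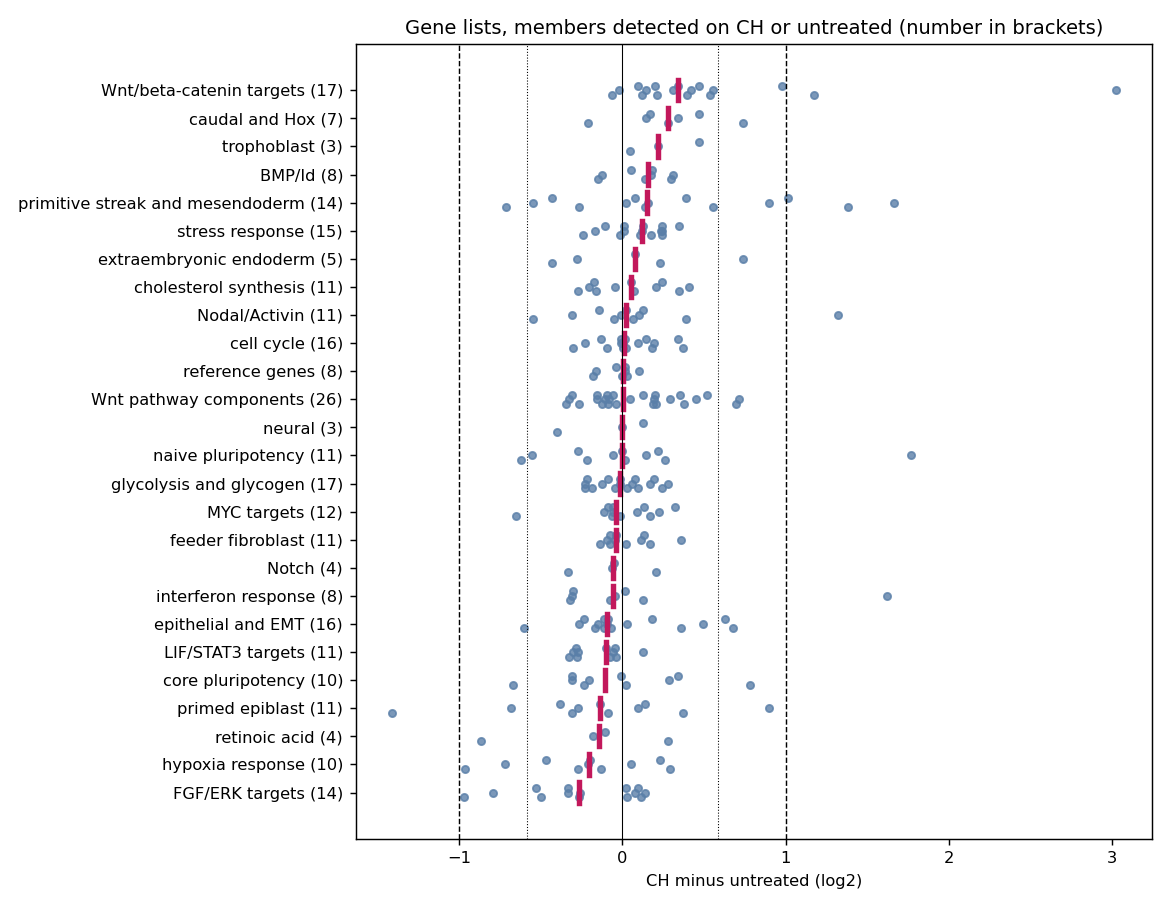
CH minus untreated (log2, horizontal axis) for the members of 26 gene lists that were detected on the CH or the untreated array, 1 point a gene, with the number kept in brackets and a bar at the median. Dashed lines mark 2-fold and dotted lines 1.5-fold. Medians run from -0.26 for FGF/ERK targets to 0.34 for Wnt/beta-catenin targets, of which 6 of 17 were detected with CH only. The 3 list members with the largest differences are Sp5 (3.03), Gbx2 (1.77) and Mixl1 (1.67).

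The CH array was also set against untreated, PD and LIF at once, which asks where the culture with CHIR99021 alone stood apart. It lay at least 1.5-fold above all of them for 32 genes and at least 1.5-fold below all of them for 7. The same counts were 19 above and 76 below for PD, 5 and 4 for LIF and 15 and 2 for untreated. All were taken over the 7882 genes detected on CH or untreated. That filter keeps genes detected with CH only and drops those detected with PD or LIF only. The counts therefore cannot be compared between arrays. Of the 32, 17 were detected on both the CH and the untreated array. The others were detected with CH but not untreated.

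Members of this set outside the lists, named after their values were seen, include Grsf1, Tgfbr3 and Lmo2. Grsf1, an RNA-binding protein gene, was at 9.89 untreated, 9.86 with PD, 9.75 with LIF, 10.65 with CH and 10.70 with PCL, a difference of 0.76 ± 0.07. Its 3 arrays without CHIR99021 lay within 0.14 of each other, and both arrays with it were higher. Tgfbr3, a co-receptor gene of the TGF-beta family, was at 8.49, 8.39, 7.99, 9.21 and 8.88 on the untreated, PD, LIF, CH and PCL arrays. Lmo2, a LIM-domain gene of blood formation, was at 5.65 untreated, 5.11 with PD, 5.67 with LIF, 6.51 with CH and 5.69 with PCL, so PCL did not share its higher level. Of the 7 below, Ier3 and the sulfotransferase gene Chst1 (9.37 untreated, 9.66 with PD, 9.40 with LIF, 8.78 with CH and 9.10 with PCL) were the brightest.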

How the data were processed

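Total RNA of 5 cultures was hybridised to Illumina bead arrays, 1 array each. For each probe the deposited tables give a linear intensity, its error over beads and a detection p-value, per the file headers. BeadStudio (version not given in the sources) was the authors' export tool for these intensity values, as the submitters' processing notes name it. A further deposited table of processed intensities, with a median of 65 on each array and a normalization not given in the sources used here, served as an alternative.

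Intensities were background-corrected with limma 3.58.1 in R 4.3.3 (normexp, control levels inferred from detection p-values, offset 16), quantile-normalized over 5 arrays and put on a log2 scale. The offset compresses differences of dim genes. The fold calculation was tested on simulated data. A gene was represented by its brightest probe. Of the probes, 23978 had 1 symbol in the platform annotation and 1719 had none. Genes detected on 1 of the 2 arrays have a bound against the lowest detected level of the other array (4.89 untreated, 4.78 CH). No test was run between single arrays, and their number limits the precision.

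Named genes were those at least 2-fold different, the next by size to 15 higher and 15 lower, list members at least 1.5-fold different or at a list's extreme, and Gsk3a and Gsk3b. The 26 lists hold 396 genes, 357 with a probe and 263 kept. Members and lists were chosen with earlier results of these data known, and further list members are named as examples. Promoters are RefSeq windows of GRCm38.p6. Mixl1, Fst and Dkk4 have no window in the table. Alternatives for background, normalization, offset, filter, probe choice, values and reference were run.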

Additional observations from a re-analysis of the deposited data

Results flagged for a closer look

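A probe with no gene symbol in the platform annotation, ILMN_1244340, lies outside the comparison of named genes and differed by more than 2-fold. It was detected on all 5 arrays, at 7.36 untreated, 6.23 with PD, 7.02 with LIF, 8.63 with CH and 7.55 with PCL, a log2 difference of 1.27. Of 646 unnamed probes kept, it was the only one at least 2-fold higher with CH. ILMN_2595857 was the only one at least 2-fold lower (-1.09).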

How the results depend on the processing

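The counts of genes at least 2-fold higher and lower (9 and 6) and 1.5-fold higher and lower (117 and 104) were recomputed under 11 alternatives, with the medians of the Wnt targets (0.34) and streak genes (0.15). Both medians stayed above 0 in each. Most alternatives keep the same detection filter, which 6 of the 17 Wnt targets passed with CH only. The Wnt median was 0.40 over targets detected on both arrays and 0.19 over all 26 with a probe. List members were chosen with earlier results of these data known, so the medians are no independent support. Without background correction the counts were 3 and 2, and 15 and 11, with a Wnt median of 0.12. An offset of 50 left 2 lower at 2-fold, 19 and 25 at 1.5-fold, and a Wnt median of 0.17. Scaling to the 75th percentile gave 60 higher at 2-fold, 502 and 38 at 1.5-fold, and medians of 0.61 and 0.35, with the median of all genes at 0.08. Detection on both arrays left 61 and 66 at 1.5-fold. The authors' values gave 26 and 20, and 202 and 216, sharing 8 and 4 genes with the 9 and 6. With the mean of PD and LIF as reference there were 20 higher and 1 lower at 2-fold, 57 lower at 1.5-fold, and medians of 0.45 and 0.28. Against the same reference the differences of Egr1 (1.70), Grm6 (0.72), Slc46a3 (0.59) and Lor (0.36) turned positive. With the median of untreated, PD and LIF as reference there were 2 lower at 2-fold (Pou3f1 and Pisd-ps2) and 47 at 1.5-fold, and Egr1 (0.51) and Grm6 (0.0741) turned positive. Cyclic loess, the CH and untreated arrays normalized alone, a detection limit of 0.05 and the mean of a gene's probes kept the counts within 1.5 times. The cause of these shifts was not tested beyond each alternative's own construction. No paired analysis was possible because each condition has 1 array. Restricting the second look to genes detected on PD, LIF and PCL, a choice made after seeing the data, left 8 of the 9 higher genes. Levels near the detection limit, 4.78 to 4.98, carry only bounds.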
